A study of Mus musculus with 9 samples.

Results

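The hearts of Klf9KI mice were compared with the hearts of Wt-Cre mice at 8 weeks of age, the oldest of 3 ages collected. Klf9KI mice carry a Klf9 knock-in transgene together with alphaMHC-Cre, and Wt-Cre mice carry alphaMHC-Cre without it. The alphaMHC promoter is active in cardiomyocytes, so both genotypes carry the recombinase in those cells, and the series was set up to see what lasting Klf9 expression in cardiomyocytes does to the heart. There were 3 hearts of each genotype, and every gene of the deposited 8-week count table with enough counts entered the comparison, which kept 14483 of 30074 genes. The 6 libraries are 6 of the 18 heart RNA libraries in the series, and the other 12 come from the same genotypes at 1 and 4 weeks. The labels give 3 hearts a group without naming litters, so the p-values measure the spread between these samples.

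Klf9, a Krüppel-like zinc-finger protein, binds GC-rich DNA to regulate transcription and responds to glucocorticoids. Adult cardiomyocytes burn mostly fatty acids in mitochondria, and a failing heart typically loses part of that machinery, turns natriuretic peptide and fetal sarcomere genes back on, and accumulates extracellular matrix. The matrix is made largely by cardiac fibroblasts, which respond to TGF-beta and to mechanical load. RNA here came from whole hearts, so muscle cells, fibroblasts, vessels and immune cells were measured together.

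The 6 libraries held 12543825 to 19912542 counts. All 6 contained RNA of the Y-linked genes Eif2s3y and Ddx3y, and Xist was near 0, so the genotypes did not differ in sex. Klf9KI replicate 2 stood apart from the other hearts in relation to gene length. Among the shortest of 4 equal sets of genes (57 to 2530 bases) its median log2 difference from the Wt-Cre mean was −0.47, and among the longest set (6586 to 123179 bases) it was 0.37. The same medians were −0.10 and 0.05 in Klf9KI replicate 1 and −0.02 and −0.01 in replicate 3, and they stayed within 0.02 of 0 in the Wt-Cre hearts. Matrix genes are long (median 5750.0 bases) and respiratory chain genes are short (median 1631 bases), against a median of 4221 bases for all genes tested. An alternative fit therefore used an offset for each library's trend over gene length. Some counts of gene groups moved by over 1.5 times when 1 heart was left out or with that offset. For most of them, those other counts are given beside the count with all hearts. How far that trend enters a single gene's change was not tested beyond these fits.

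**Figure D1:**
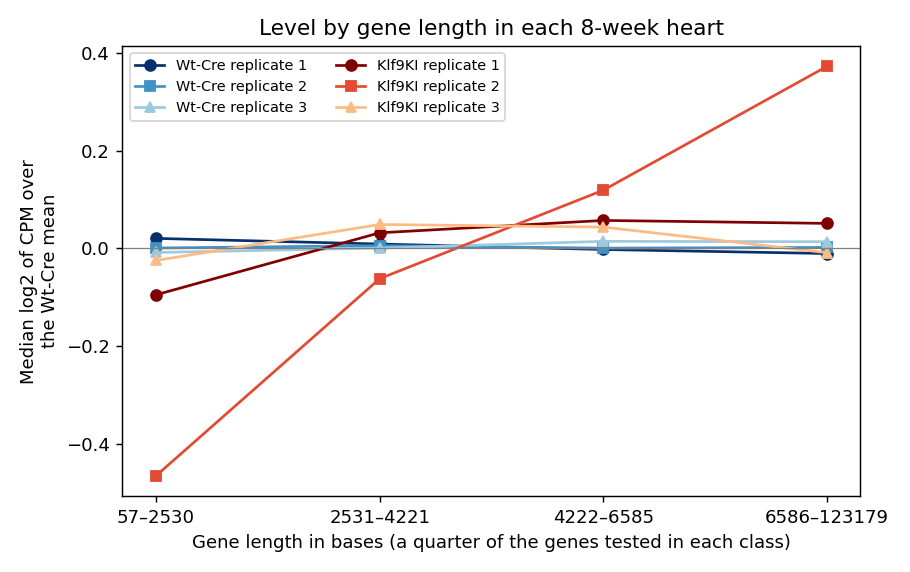
Median log2 difference of each heart from the Wt-Cre mean (y axis) in 4 equal sets of genes ordered by length (x axis, bases), 1 line per heart. The line of Klf9KI replicate 2 runs from −0.47 to 0.37, and the lines of the Wt-Cre hearts stay within 0.02 of 0.

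The transgene was checked first. Klf9 reached 108, 122 and 111 CPM (counts scaled to a common library size, with TMM factors) in the 3 Klf9KI hearts and 43.8, 65.6 and 40.6 CPM in the 3 Wt-Cre hearts. All Klf9KI values lay above all Wt-Cre values. The log2 fold change was 1.19 (SE 0.21, edgeR quasi-likelihood test, Benjamini-Hochberg adjusted p = 0.00594), and it no longer passed the threshold without Wt-Cre heart 1 (adjusted p = 0.0548). The count is a sum over endogenous and transgenic RNA wherever the transgene holds sequence counted as Klf9. Of the other Krüppel-like factors and relatives measured, only Klf15, a regulator of amino acid and lipid metabolism in muscle, also passed the threshold, with 28.0, 32.5 and 36.2 CPM in the Klf9KI and 67.0, 73.5 and 43.6 CPM in the Wt-Cre hearts. Its log2 change was −0.93 (adjusted p = 0.0247), and the call was lost without Klf9KI heart 1 or Wt-Cre heart 1 or 2 (adjusted p = 0.111 to 0.15).

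At an adjusted p under 0.05, 1518 genes differed between the genotypes, 10.5% of those tested. Of these, 719 (4.96%) were higher in Klf9KI and 799 (5.52%) were lower. The median change was 1.38 on the log2 scale among the higher and −1.11 among the lower genes. A change of at least 4-fold was found for 189 higher and 131 lower genes. The CPM ranges of the genotypes did not overlap for 1514 of the 1518, against 4566 genes in all (31.5%). Lack of overlap in a called gene is therefore a description and no further support for its call. The 15 largest rises and 15 largest falls named below were chosen among genes without overlap. The number called depended on which hearts were used. It was 769 without Klf9KI replicate 1, 2102 without replicate 2 and 1972 without replicate 3, and 543, 518 and 695 without Wt-Cre replicate 1, 2 or 3. Without Klf9KI replicate 1, 2 or 3 the shares of genes tested were 2.43%, 6.2% and 6.64% higher and 2.69%, 7.6% and 6.56% lower. Without Wt-Cre replicate 1, 2 or 3 they were 1.8%, 1.76% and 2.2% higher and 1.76%, 1.66% and 2.37% lower.

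The largest rises included stress-induced genes of muscle and genes of connective tissue. Sprr1a, a stress-induced protein of the cornified envelope family that cardiomyocytes make under load, had 145, 190 and 61 counts in the Klf9KI hearts and none in any Wt-Cre heart. Against a floor of 3 counts over the Wt-Cre group it was at least 94.6-fold higher. Comp, a cartilage and tendon matrix protein, stood at 146, 139 and 59.7 CPM against 2.25, 2.51 and 0.844 CPM. All 3 Klf9KI hearts were above every Wt-Cre heart, with replicate 3 the lowest of the 3, and the log2 change was 5.95 (SE 0.46, adjusted p = 7.2e-05). The latent TGF-beta binding protein Ltbp2 rose by 5.18, the cartilage protein Cilp by 4.47 and the muscle transcription cofactor Vgll2 by 5.74 on the log2 scale. The 15 largest rises also included Lrp8, Rasgef1a, Gdf6, Anxa8, Col12a1, Slc9a3, Wisp2, Nppa and Postn, with log2 changes from 4.10 for Postn to 5.05 for Lrp8. The call of Wisp2 was lost without Klf9KI heart 2 (adjusted p = 0.0514), and that of Nppa without Klf9KI heart 2 (adjusted p = 0.0655). Other settings with all hearts ended the call for Wisp2 with no filter on counts (adjusted p = 0.0995).

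The largest falls included a lipase, an amino acid transporter and several ion channels. Ces1d, a carboxylesterase that hydrolyses triglyceride, fell from 116, 126 and 120.1 CPM in the Wt-Cre hearts to 1.31, 0.0682 and 1.11 CPM in the Klf9KI hearts. No Klf9KI heart came near the Wt-Cre range, and the log2 change was −7.09 (SE 0.49, adjusted p = 5.33e-05). Slc36a2, a proton-coupled transporter of small amino acids, fell by 5.99 and Frmpd3 by 6.85 on the log2 scale. The channel genes Scn4b, Clcn1, Kcnv2, Kcnj3 and Kcnd2 and the exchanger Slc9a2 were also among the 15 largest falls. The others were Lgi1, Mme, Ctla4, Aqp4, Penk and Rtn4r.

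Genes that mark stress in the ventricle rose together. Of 18 fetal and stress genes tested, 14 rose and 1 fell, with a median log2 change of 1.77 against 0.04 for all genes. This and the other gene lists were chosen with earlier results of these data known, so their counts are a description. Nppa, which encodes atrial natriuretic peptide, read 1796, 2299.6 and 1448 CPM in the Klf9KI hearts and 44.8, 70.6 and 205 CPM in the Wt-Cre hearts. The lowest Klf9KI heart, replicate 3, was still above the highest Wt-Cre heart. The log2 change was 4.11 (SE 0.51, adjusted p = 0.0008), and 3.92 (adjusted p = 0.0655) without Klf9KI replicate 2. Nppa is also a gene of the atria. Of 7 atrial markers tested, 1 rose (Dkk3, 2.71) and 3 fell (Kcnj3, −4.39, Stard10, −1.73, and Clec3b, −1.51), with a list median of −0.18. The summed CPM of the list, which does not hold Nppa, was 90.0, 64.1 and 81.2 in Klf9KI and 127, 144 and 155 in Wt-Cre hearts. Most of the drop in that sum lay in Kcnj3 alone, at a mean of 2.69 CPM in Klf9KI and 56.3 CPM in Wt-Cre hearts. The atrial myosin light chain Myl7 was below the filter, at 0.657, 0.0682 and 1.46 against 0.211, 0.557 and 0 CPM. The part of atrial tissue in these changes was not tested. Nppb, the brain natriuretic peptide gene, read 1967, 1064 and 868 against 428, 443 and 81.1 CPM. The groups did not overlap, but the change of 2.03 (adjusted p = 0.0344) lost its call without Klf9KI heart 1 or 2 or Wt-Cre heart 1 or 2 (adjusted p = 0.0791 to 0.281). Leaving out 1 heart ended the call of Stard10 (Wt-Cre heart 1 or 2), with adjusted p from 0.0562 to 0.0579. In fits of all hearts, the call was also lost for Nppb by DESeq2 (adjusted p = 0.0571) and by limma (adjusted p = 0.158) and with no filter on counts (adjusted p = 0.415). The number of stress genes that rose was 10, 11 and 14 without Klf9KI heart 1, 2 or 3, and 9, 10 and 12 without Wt-Cre heart 1, 2 or 3.

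The slow myosin heavy chain gene Myh7, which the mouse ventricle uses before birth, read 3918, 5867 and 1435 CPM in Klf9KI hearts against 234, 171 and 287 CPM in Wt-Cre hearts. Every Klf9KI heart was above every Wt-Cre heart, but replicate 3 held less than replicates 1 and 2. The log2 change was 4.02 (SE 0.46, adjusted p = 0.000548). Its adult counterpart Myh6 stood at 4641, 9875 and 7224 CPM against 14285, 15009.9 and 11938 CPM and did not pass the threshold (−0.92, adjusted p = 0.0581). In the authors' length-scaled FPKM values the ratio of Myh7 to Myh6 was 0.659, 0.464 and 0.155 in the Klf9KI hearts and 0.0128, 0.00887 and 0.0188 in the Wt-Cre hearts. The groups did not overlap (exact two-sided permutation test, p = 0.1, the smallest that 3 against 3 hearts allow). Myh6 therefore remained the larger of the 2 transcripts per length in all 6 hearts.

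Ankrd1, a stretch-responsive cofactor of the sarcomere, showed the largest gain in CPM of any called protein-coding gene. It went from 1389.8 ± 76.0 to 8017 ± 327 CPM (SD, n = 3), with a log2 change of 2.53 (adjusted p = 9.9e-05). Xirp2, an actin-binding protein of the intercalated disc, read 2595, 3206 and 2168 CPM against 500.0, 455 and 545 CPM. Its 3 Klf9KI hearts were all above the Wt-Cre hearts, and its log2 change was 2.41. Nmrk2, a muscle kinase that makes NAD from nicotinamide riboside, rose by 2.46 and the calcineurin inhibitor Rcan1 by 1.63. Skeletal actin Acta1 rose by 1.79, a call that was lost without Klf9KI heart 1 or 2 or Wt-Cre heart 1 (adjusted p = 0.0517 to 0.198). In FPKM the ratio of Acta1 to cardiac actin Actc1 was 0.312, 0.362 and 0.431 in Klf9KI and 0.0792, 0.0245 and 0.112 in Wt-Cre hearts, with no overlap. The gene that fell in this list was Acta2, smooth muscle actin, at 61.7, 98.8 and 54.2 CPM against 169, 199 and 436 CPM. With 1 heart left out, calls were lost for Rcan1 (Wt-Cre heart 1, 2 or 3) and Acta2 (Klf9KI heart 1) (adjusted p = 0.054 to 0.0747). With all hearts kept, a call was also lost for Acta1 by limma (adjusted p = 0.134) and in the fit of 18 libraries (adjusted p = 0.0708).

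**Figure D2:**
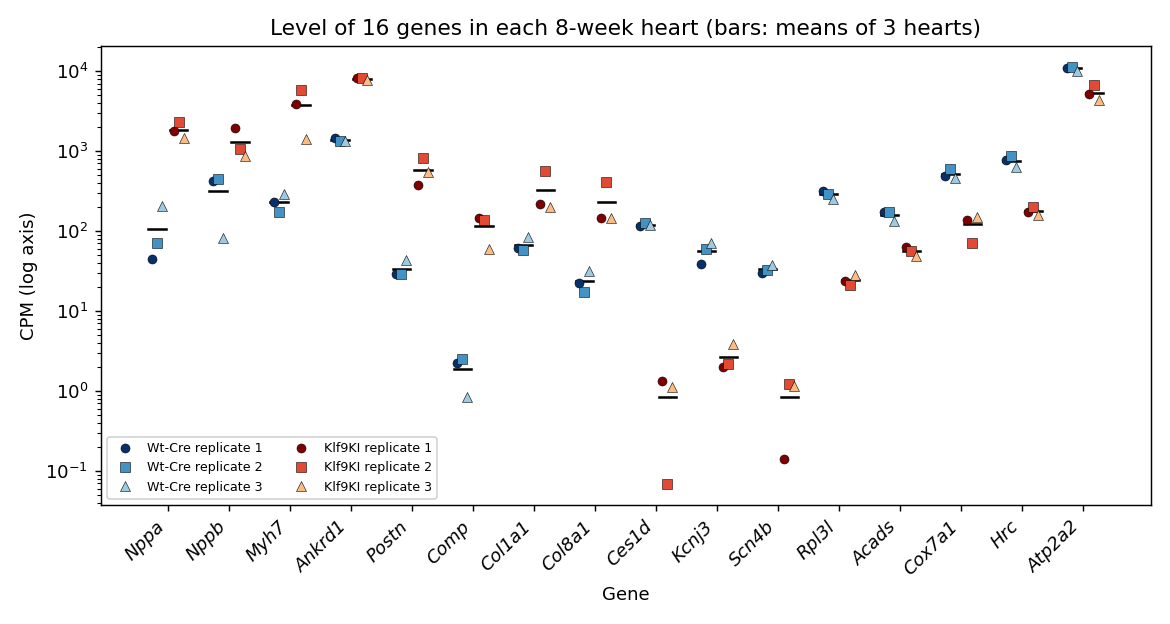
CPM (log y axis) of 16 genes (x axis) in each heart, with Wt-Cre hearts in blue, Klf9KI hearts in red to orange, and bars at the means of 3 hearts. The 2 genotypes do not overlap for Myh7, Postn, Comp, Ces1d or Kcnj3, and Klf9KI replicate 3 has the lowest Myh7 of its group.

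Matrix genes rose across collagens, matricellular proteins, glycoproteins and the enzymes that assemble them. In the 4 matrix lists together, 58 of 92 genes tested rose and 0 fell, with a median log2 change of 1.32. Without Klf9KI replicate 2, 53 rose and 2 fell (Ogn, −0.59, and Mmp15, −0.95), with a median of 1.03, where 6.2% of all genes tested were higher and 7.6% lower. With the length offset, 58 rose and 1 fell (Mmp15, −0.79), where 5.83% of all genes were higher and 6.75% lower. Without Klf9KI replicate 1, 46 rose and 0 fell, where 2.43% of all genes were higher and 2.69% lower. Without Wt-Cre replicate 1 or 2 the number that rose dropped to 36 and 33, with medians of 1.39 and 1.34.

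Of 22 collagen genes tested, 19 rose and 0 fell, with a median of 1.58 (1.05 without Klf9KI replicate 2 and 1.43 with the length offset). The fibril-forming collagen Col1a1 read 216, 557 and 199 CPM in the Klf9KI hearts and 60.9, 57.7 and 85.0 CPM in the Wt-Cre hearts. Replicate 2 held more than either of the other Klf9KI hearts, and all 3 were above the Wt-Cre range. The log2 change was 2.26 (SE 0.38, adjusted p = 0.00418) with all hearts and 1.61 (adjusted p = 6.61e-05) without replicate 2. Col3a1, which forms fine fibrils together with Col1a1, rose by 1.65 (adjusted p = 0.0145) and lost its call without Wt-Cre heart 1, 2 or 3 (adjusted p = 0.062 to 0.0849). The FPKM ratio of Col1a1 to Col3a1 was 0.868, 0.753 and 0.622 in Klf9KI hearts and 0.454, 0.439 and 0.565 in Wt-Cre hearts, which did not overlap. Among collagens, the number that rose was 17, 19 and 20 without Klf9KI heart 1, 2 or 3, and 8, 8 and 12 without Wt-Cre heart 1, 2 or 3.

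The steepest collagen rises were outside the abundant fibril collagens. Col12a1, which decorates collagen fibrils in tendon, read 10.2, 43.1 and 9.77 CPM against 0.492, 0.928 and 1.38 CPM and rose by 4.49 (adjusted p = 0.00219). Without replicate 2 its change was 3.41 (adjusted p = 0.000299). Col8a1, a short-chain collagen of vessel walls and injured hearts, read 147, 409.9 and 144 CPM against 22.7, 17.4 and 31.5 CPM. All 3 Klf9KI hearts lay above the Wt-Cre hearts, and the log2 change was 3.29. The basement membrane chains Col4a1 and Col4a2 also rose, by 1.38 and 1.32, as did Col4a3, Col4a4 and Col4a5. The 3 collagens that did not pass were Col5a3 (0.90), Col6a3 (0.31) and Col11a1 (−0.75). Single hearts decided the call of Col4a1 and Col4a2 (Klf9KI heart 1 or Wt-Cre heart 1, 2 or 3), Col4a3 (Wt-Cre heart 1, 2 or 3) and Col4a5 (Wt-Cre heart 1 or 2), which was lost with adjusted p from 0.0557 to 0.137 without them.

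Of 20 matricellular genes, which signal to cells from the matrix, 11 rose and 0 fell, with a median of 1.57. Postn, periostin, made by activated fibroblasts, read 376, 827 and 542 CPM in Klf9KI hearts against 28.9, 29.3 and 43.7 CPM in Wt-Cre hearts. Every Klf9KI heart exceeded every Wt-Cre heart, and replicate 2 was the highest of the 6. Its log2 change was 4.10 (SE 0.33, adjusted p = 9.31e-05), and 3.75 (adjusted p = 9.41e-07) without replicate 2. The thrombospondins Thbs1 and Thbs4 rose by 3.03 and 3.03, and tenascin C, Tnc, by 2.83. Ctgf, a matricellular protein induced by TGF-beta and stretch, rose by 2.03, a call lost without Klf9KI heart 2 (adjusted p = 0.107). The call depended on 1 heart for Thbs1 (Klf9KI heart 2 or Wt-Cre heart 3) and Tnc (Wt-Cre heart 1 or 2), with adjusted p from 0.0552 to 0.0883 without it. Other settings with all hearts ended the call for Thbs1 with no filter on counts (adjusted p = 0.258). For matricellular genes that rose, the number was 8, 7 and 9 without Klf9KI heart 1, 2 or 3, and 7, 7 and 8 without Wt-Cre heart 1, 2 or 3.

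Of 25 glycoproteins and proteoglycans, 14 rose and 0 fell, with a median of 1.02. Elastin, Eln, read 257, 453 and 156 CPM against 47.4, 46.4 and 37.9 CPM, and the small proteoglycan Fmod read 11.6, 22.4 and 5.85 against 0.773, 1.02 and 0.537 CPM. For both genes the groups did not overlap. The microfibril genes Fbn1, Mfap4 and Mfap5 rose by 2.49, 2.90 and 2.29, and biglycan, Bgn, by 2.43. Decorin (Dcn, 0.57) and lumican (Lum, 0.53), which decorate collagen fibrils in normal tissue, did not pass. In fits of all hearts, the call was also lost for Fmod in the fit of 18 libraries (adjusted p = 0.0908).

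Of 25 crosslinking and turnover enzymes, 14 rose and 0 fell, with a median of 0.98. All 5 lysyl oxidases, which crosslink collagen and elastin, were among those that rose. Lox read 49.6, 73.1 and 31.5 CPM against 6.18, 5.57 and 4.83 CPM with no overlap, a log2 change of 3.21 (adjusted p = 0.000222). The metalloprotease inhibitor Timp1 rose by 2.40. The prolyl and lysyl hydroxylases P4ha1, P4ha2, Plod1, Plod2 and Plod3, which modify collagen before secretion, did not pass, with changes between −0.01 and 0.58. The number of crosslinking and turnover enzymes that rose was 9, 13 and 15 without Klf9KI heart 1, 2 or 3, and 10, 8 and 10 without Wt-Cre heart 1, 2 or 3.

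Of 26 TGF-beta pathway genes, 15 rose and 0 fell, with a median of 0.92. All 3 ligands passed. Tgfb2 read 56.1, 72.6 and 56.2 CPM against 7.38, 5.94 and 10.4 CPM, Tgfb3 changed by 1.80 and Tgfb1 by 1.10. The receptors Tgfbr1 and Tgfbr2 rose by 1.10 and 0.81, and the feedback inhibitor Smad7 by 1.21. The signal-carrying Smad2, Smad3 and Smad4 did not pass, at −0.10, −0.14 and 0.13. Leaving out 1 heart ended the call of Tgfbr1 (Wt-Cre heart 1, 2 or 3), Tgfbr2 (Klf9KI heart 1 or Wt-Cre heart 1, 2 or 3) and Smad7 (Klf9KI heart 1 or Wt-Cre heart 1 or 3), with adjusted p from 0.0637 to 0.163. Among TGF-beta pathway genes, the number that rose was 10, 15 and 13 without Klf9KI heart 1, 2 or 3, and 8, 7 and 8 without Wt-Cre heart 1, 2 or 3.

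**Figure D3:**
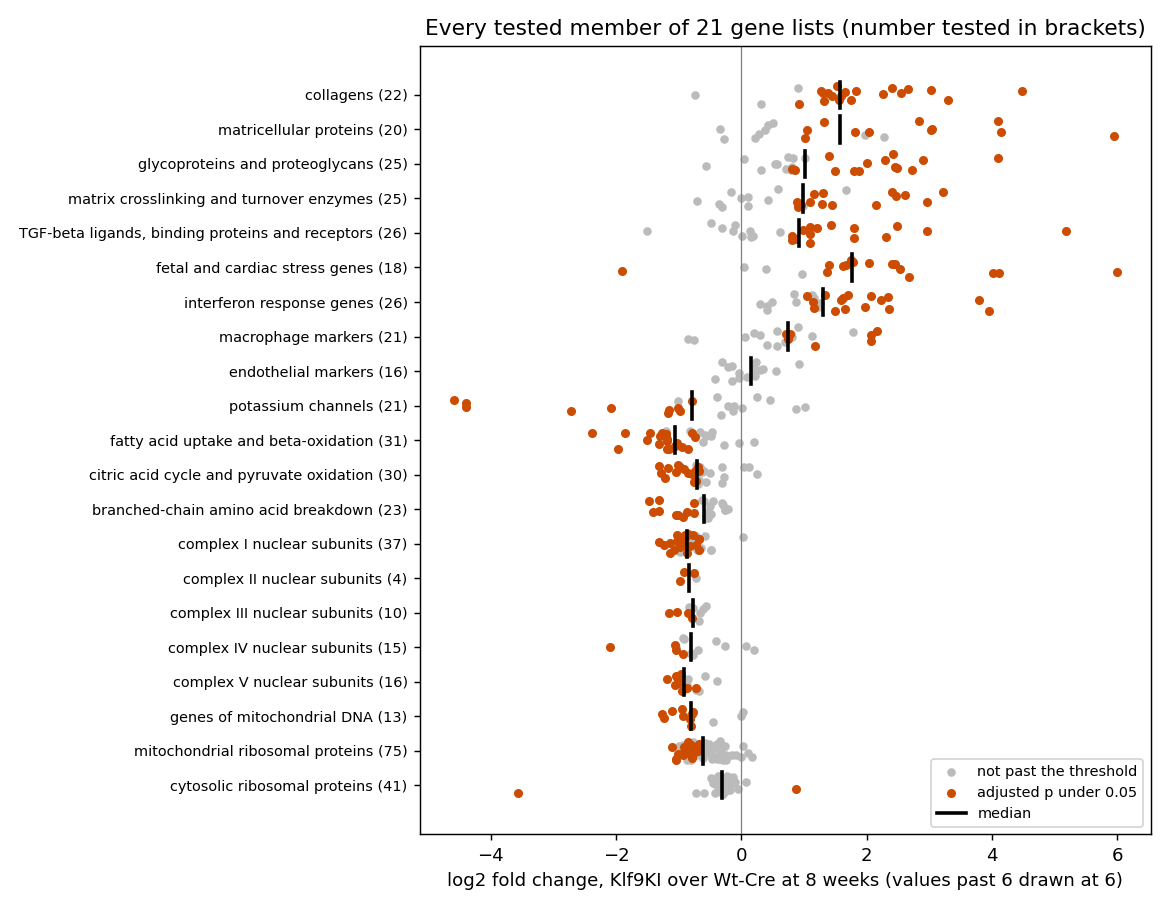
Log2 fold change of every tested member (points) of 21 gene lists (rows), with genes past the threshold in orange, the others in grey and the list median as a bar. Values past 6 are drawn at 6. The medians of the matrix, stress and interferon lists lie to the right of 0, and those of the respiratory chain, fatty acid and potassium channel lists lie to the left.

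Markers of other cell types were read beside the matrix genes. Of 12 general cardiac fibroblast markers, 3 rose (Pi16, Cd248 and Mgp) and 1 fell (Scara5), and Pdgfra, the receptor that defines the lineage, was at 46.7, 62.1 and 32.7 CPM against 25.8, 27.8 and 35.9 CPM without passing (log2 change 0.66, adjusted p = 0.126). Of 12 activated fibroblast markers, 6 rose and 2 fell. The pair that fell was Acta2 and Lrrc15, at −1.91 and −3.17. Meox1, a transcription factor of activated fibroblasts, read 105, 78.5 and 58.7 CPM against 16.9, 14.0 and 13.3 CPM with no overlap. The summed CPM of all general fibroblast markers was 2359, 1815 and 1775 in Klf9KI and 1410.3, 1193 and 1555 in Wt-Cre hearts. From whole hearts, more or fewer cells of a type and more or less RNA per cell cannot be told apart. With 1 heart left out, calls were lost for Cd248 (Wt-Cre heart 1), Mgp (Klf9KI heart 1 or Wt-Cre heart 1 or 2) and Acta2 (Klf9KI heart 1) (adjusted p = 0.0509 to 0.1). With all hearts kept, a call was also lost for Mgp in the fit of 18 libraries (adjusted p = 0.0691). For general fibroblast markers that rose, the number was 2, 4 and 5 without Klf9KI heart 1, 2 or 3, and 1, 2 and 3 without Wt-Cre heart 1, 2 or 3.

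Of 16 endothelial markers, none passed by edgeR in either direction (1 had an unadjusted p under 0.05, and DESeq2 called 1 and limma 0), and their summed CPM was 2879.6, 2707 and 2502 against 2993, 2595 and 2442. Smooth muscle and pericyte markers had 2 higher and 2 lower of 14, with Pdgfrb (0.63) and Cspg4 (0.97) higher and Acta2 and Smtn (−0.63) lower. Macrophage markers had 7 higher and 0 lower of 21, including Lgals3 (11.0, 6.14 and 13.3 against 1.90, 1.95 and 2.92 CPM) and the complement genes C1qb (0.74) and C1qc (0.72). Their summed CPM was 723, 714 and 875 in Klf9KI and 586, 445 and 554 in Wt-Cre hearts. Of 5 lymphocyte, 5 neutrophil and mast cell and 6 erythroid markers tested, none passed by edgeR, DESeq2 or limma, and none had an unadjusted p under 0.05. Of 7 Schwann cell and neuronal markers, edgeR called 0, DESeq2 1 and limma 0, with 1 at an unadjusted p under 0.05. Of 17 cardiomyocyte markers, 1 rose (Tbx20, 1.27) and 4 fell (Tnni3, Pln, Ckm and Tbx5), and the median change was −0.30, with 11 below 0. These shares were 5.88% and 23.5%, against 4.96% and 5.52% of all genes tested, so the single rise is no result about the list. The sarcomere genes Tnnt2 (−0.15), Actn2 (0.05) and Ttn (0.10) did not pass. The summed CPM of the cardiomyocyte markers was 38648, 37021 and 37135 in Klf9KI and 59900.0, 62264 and 50918 in Wt-Cre hearts, with no overlap. Of 7 skeletal muscle, tendon and cartilage markers tested, 4 rose and 2 fell, with Ckm among those that fell. Scx and Sox9, transcription factors of tendon and cartilage, rose by 1.73 and 2.00. Tnmd and Chad of the same list were below the filter. So were the cartilage genes Acan and Col2a1, at no more than 1.46 and 2.41 CPM in any heart. The part of cell numbers in the matrix changes was not tested. Single hearts decided the call of Pdgfrb, Tbx20 and Tbx5 (Klf9KI heart 1 or Wt-Cre heart 1, 2 or 3), Cspg4 and Tnni3 (Wt-Cre heart 1 or 2), Acta2 (Klf9KI heart 1), Smtn, C1qb and C1qc (Klf9KI heart 1 or 3 or Wt-Cre heart 1, 2 or 3), Pln (Wt-Cre heart 1, 2 or 3), Ckm (Klf9KI heart 2 or Wt-Cre heart 1 or 2) and Sox9 (Klf9KI heart 1 or Wt-Cre heart 1 or 2), which was lost with adjusted p from 0.054 to 0.235 without them. Among other settings with all hearts, the calls of Pdgfrb and Smtn were lost with no filter on counts (adjusted p = 0.0537 and 0.0625). Over all 17 settings the call was lost in 7 for Pdgfrb and in 7 for Smtn. The number of macrophage markers that rose was 4, 9 and 5 without Klf9KI heart 1, 2 or 3, and 3, 2 and 2 without Wt-Cre heart 1, 2 or 3. Cardiomyocyte markers that fell numbered 3, 6 and 4, and 0, 0 and 2, in the same order.

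Genes of mitochondrial energy production were lower. In the lists of the respiratory chain, mitochondrial DNA, the citric acid cycle and fatty acid oxidation together, 84 of 154 genes tested fell and 0 rose, with a median of −0.83. Without Klf9KI replicate 2, 118 fell (median −0.73), and with the length offset 89 fell (median −0.72). Without Klf9KI replicate 1, 34 fell (median −0.91). Without Wt-Cre replicate 1, 2 or 3 the count was 17, 19 and 40, with medians of −0.78, −0.77 and −0.92. No member rose with all hearts, without any 1 heart or with the length offset.

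Complex I, the entry point of electrons from NADH, had 21 of 37 nuclear subunits lower and 0 higher, with a median of −0.87. Without Klf9KI replicate 2 the median was −0.69. Ndufs4, a subunit needed to finish assembly of the complex, read 103, 70.6 and 106 CPM in Klf9KI hearts against 241, 249 and 204 CPM in Wt-Cre hearts. The groups did not overlap and replicate 2 was the lowest heart. Its log2 change was −1.31 (SE 0.21, adjusted p = 0.00333). Complex II had 3 of 4 (Sdha, Sdhb and Sdhc), complex III 4 of 10 (Uqcrc1, Uqcrfs1, Uqcrb and the carrier Cycs), complex IV 4 of 15 (Cox5a, Cox7a1, Cox7b and Cox7c) and complex V 10 of 16 subunits lower, with none higher. The median changes of these 4 complexes lay between −0.91 and −0.77. The call depended on 1 heart for Sdha, Uqcrfs1, Uqcrb and Cox5a (Klf9KI heart 1 or Wt-Cre heart 1 or 2), Sdhb, Sdhc, Cox7b and Cox7c (Klf9KI heart 1 or Wt-Cre heart 1, 2 or 3), Uqcrc1 (Klf9KI heart 1 or 3 or Wt-Cre heart 1, 2 or 3) and Cycs (Wt-Cre heart 2), with adjusted p from 0.0547 to 0.176 without it. Among complex I subunits, the number that fell was 8, 30 and 27 without Klf9KI heart 1, 2 or 3, and 1, 2 and 10 without Wt-Cre heart 1, 2 or 3. Complex II subunits that fell numbered 0, 4 and 4, and 0, 0 and 1, in the same order. Complex III subunits that fell numbered 1, 7 and 4, and 1, 0 and 3, in the same order. Complex IV subunits that fell numbered 1, 10 and 8, and 1, 1 and 2, in the same order. Complex V subunits that fell numbered 3, 13 and 11, and 0, 0 and 3, in the same order.

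Cox7a1, the muscle form of a complex IV subunit, fell most among the subunits. It read 139, 71.8 and 152 CPM against 494, 589.6 and 460.1 CPM, with no overlap, and its log2 change was −2.09 (SE 0.28, adjusted p = 0.00118). Its widely expressed counterpart Cox7a2 did not pass (−0.80, adjusted p = 0.131). In FPKM, Cox7a1 was the more abundant of this pair in Wt-Cre hearts, at 1125 ± 158 against 720.3 ± 65.4 (SD, n = 3). In Klf9KI hearts Cox7a2 was the more abundant, at 410.1 ± 173 against 261 ± 90.6.

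Transcripts of mitochondrial DNA made up 20.6%, 20.9% and 18.6% of counts in the Klf9KI hearts and 27.7%, 29.7% and 28.7% in the Wt-Cre hearts. The groups did not overlap (exact two-sided permutation test, p = 0.1, the smallest possible). Of 13 mitochondrial genes, 9 fell, with a median of −0.80. These genes are short, and with the length offset 2 fell (mt-Nd1 and mt-Co3), with a median of −0.52. mt-Co1, the catalytic subunit of complex IV, read 65529, 66964 and 50593 CPM against 103539, 110832 and 101084 CPM, the largest loss in CPM of any called protein-coding gene. Its log2 change was −0.78 (adjusted p = 0.0403), and the call was lost without Klf9KI heart 1 or 3 or Wt-Cre heart 1, 2 or 3 (adjusted p = 0.0867 to 0.183) and with the length offset (−0.54, adjusted p = 0.183). mt-Nd5 (0.02) and mt-Nd4l (0.00) did not pass, but without Klf9KI replicate 2 mt-Nd5 fell by 0.80 (adjusted p = 0.0336). The genes mt-Nd4l and mt-Atp8 overlap neighbouring genes so that reads may be split between them. Leaving out 1 heart ended the call of mt-Nd1 (Wt-Cre heart 1 or 2), mt-Co3 (Wt-Cre heart 1) and mt-Atp8 (Klf9KI heart 1 or Wt-Cre heart 1, 2 or 3), with adjusted p from 0.0547 to 0.183. For mitochondrial genes that fell, the number was 3, 10 and 4 without Klf9KI heart 1, 2 or 3, 0, 1 and 2 without Wt-Cre heart 1, 2 or 3, and 2 with the length offset.

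Of 31 genes for fatty acid uptake and oxidation, 20 fell and 0 rose, with a median of −1.06. Acads, which dehydrogenates short-chain acyl-CoA, read 63.2, 55.6 and 49.4 CPM in Klf9KI hearts against 171, 173 and 133 CPM in Wt-Cre hearts. The groups did not overlap, and the log2 change was −1.50 (SE 0.19, adjusted p = 0.00093). Acaa2, the mitochondrial thiolase of the last step, fell by 1.98 on the log2 scale, both chains of the trifunctional protein fell (Hadha −1.18, Hadhb −0.94), and the electron transfer flavoproteins Etfa and Etfb fell by 1.19 and 1.46. Cpt1b, the muscle carnitine palmitoyltransferase that admits fatty acids to mitochondria, read 1.13, 2.52 and 0.644 CPM against 4.01, 1.58 and 4.22 CPM and did not pass (log2 change −1.20, adjusted p = 0.266). RefSeq places a read-through transcript, Gm44502, across Cpt1b, so its counts are uncertain. Its partner of the inner membrane, Cpt2, fell by 1.20. With 1 heart left out, calls were lost for Hadhb (Klf9KI heart 1 or Wt-Cre heart 1 or 2) and Etfb (Klf9KI heart 1 or Wt-Cre heart 1, 2 or 3) (adjusted p = 0.0558 to 0.109). The number of fatty acid genes that fell was 13, 25 and 20 without Klf9KI heart 1, 2 or 3, and 11, 12 and 14 without Wt-Cre heart 1, 2 or 3.

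The series also holds Klf9 binding regions from 1 sample of sham-operated adult hearts of 12 to 14 weeks, whose title does not name the Klf9KI genotype. Of 13012 protein-coding genes tested, 3555 (27.3%) had such a region within 1 kb of the start. The share was 218 of 722 (30.2%) among genes that fell and 103 of 701 (14.7%) among genes that rose, and these shares are given as a description. Among genes of energy production that fell, at least 13 had a region across the promoter window. Not every chromosome was searched for these genes, so some with such a region may be missing from the 13. No share over all genes is given for this window, so the 13 is a description. Of the 13, 7 contained the letters CACGCCC, in either direction, the GC-box-like letters searched for here. The same letters occur in 2774 of 32851 mouse promoters of equal length (8.44%), counted with or without a Klf9 region. Their share among all promoters with a sham region was not computed, so the 7 of 13 has no like background here. The 3 promoters below belong to fatty acid oxidation genes with the strongest sham signals among those 7, and are printed to show where the letters fall. They are RefSeq sequences (GRCm38.p6), read 5′ to 3′ on the strand of the gene, running from 250 bases before the start to 50 after it, with the letters in capitals.
Acads, chr5:115119297-115119596, minus strand: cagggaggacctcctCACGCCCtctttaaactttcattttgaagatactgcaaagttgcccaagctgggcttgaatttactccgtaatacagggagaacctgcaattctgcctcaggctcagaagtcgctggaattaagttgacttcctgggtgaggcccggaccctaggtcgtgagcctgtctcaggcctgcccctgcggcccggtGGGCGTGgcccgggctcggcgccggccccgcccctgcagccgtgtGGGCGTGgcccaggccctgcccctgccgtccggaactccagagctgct
Etfa, chr9:55512194-55512493, minus strand: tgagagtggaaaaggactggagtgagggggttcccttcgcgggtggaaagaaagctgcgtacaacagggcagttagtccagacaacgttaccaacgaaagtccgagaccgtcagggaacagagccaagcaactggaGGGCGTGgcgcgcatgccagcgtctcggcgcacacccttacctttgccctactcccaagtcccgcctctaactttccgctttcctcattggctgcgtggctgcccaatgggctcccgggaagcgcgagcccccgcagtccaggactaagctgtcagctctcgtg
Cpt2, chr4:107923540-107923839, minus strand: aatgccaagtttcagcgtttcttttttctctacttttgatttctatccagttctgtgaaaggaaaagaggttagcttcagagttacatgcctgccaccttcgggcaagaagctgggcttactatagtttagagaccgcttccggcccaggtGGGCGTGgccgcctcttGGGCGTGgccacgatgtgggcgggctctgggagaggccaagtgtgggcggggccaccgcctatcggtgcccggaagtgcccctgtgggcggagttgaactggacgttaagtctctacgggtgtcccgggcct
The Acads window contains the letters 3 times, the Cpt2 window 2 times and the Etfa window 1 time. The sham regions across them had signals of 73.5, 45.5 and 45.6, in the authors' units, for Acads, Cpt2 and Etfa. A match to these letters is a description of the window and not a measured binding site.

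Of 30 genes of the citric acid cycle and pyruvate oxidation, 15 fell and none rose (median −0.70), including Mpc2, a subunit of the mitochondrial pyruvate carrier, at 194, 127 and 186 CPM against 447, 423 and 383 CPM. Of 23 genes for breakdown of branched-chain amino acids, 10 fell and none rose. The transcriptional coactivator Ppargc1a, which drives mitochondrial biogenesis, fell by 0.81 on the log2 scale (adjusted p = 0.0248), a call lost without Klf9KI heart 1 or Wt-Cre heart 1, 2 or 3 (adjusted p = 0.066 to 0.145). It was the only one of 20 biogenesis regulators to pass, and Esrra (−0.49), Ppara (0.08) and Tfam (−0.44) did not. This share (5%) stands near the 5.52% of all genes that were lower, so the count is no result about the list. Of 75 mitochondrial ribosomal proteins, 18 fell and none rose. Of 15 genes of mitochondrial dynamics and mitophagy, edgeR called 0, DESeq2 2 and limma 3, and 4 had an unadjusted p under 0.05. The muscle creatine kinase Ckm fell by 1.70 and the adenine nucleotide carrier Slc25a4 by 1.31. The calls of these 2 genes were lost without Klf9KI heart 2 or Wt-Cre heart 1 or 2 (adjusted p = 0.0601 to 0.07) and without Wt-Cre heart 1 or 2 (adjusted p = 0.0617 to 0.0698), respectively. In fits of all hearts, the call was also lost for Ppargc1a in the fit of 18 libraries (adjusted p = 0.0724). Among citric acid cycle genes, the number that fell was 5, 21 and 12 without Klf9KI heart 1, 2 or 3, and 3, 3 and 6 without Wt-Cre heart 1, 2 or 3. Branched-chain genes that fell numbered 8, 17 and 10, and 5, 5 and 8, in the same order. Mitochondrial ribosomal proteins that fell numbered 9, 30 and 33, and 0, 0 and 6, in the same order.

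**Figure D4:**
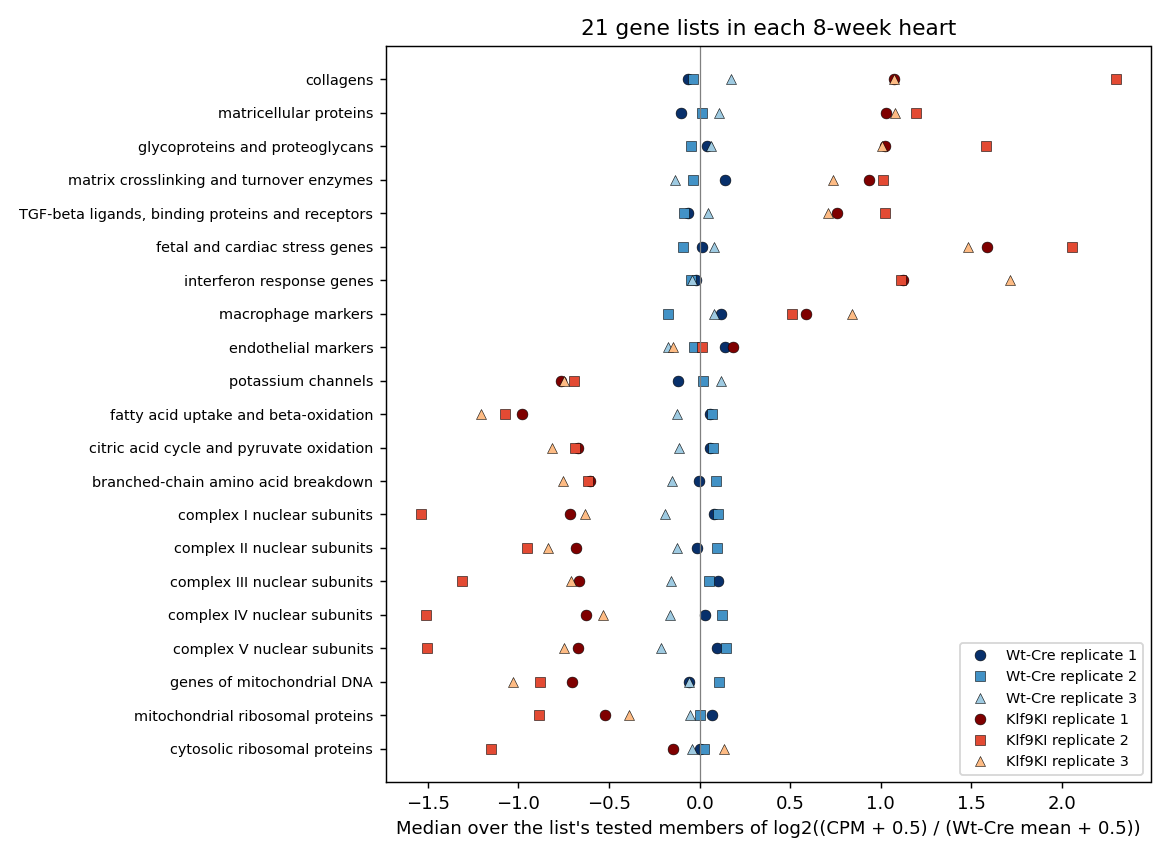
Median log2 difference from the Wt-Cre mean (x axis) of 21 gene lists (rows) in each of the 6 hearts (points). Klf9KI replicate 2 is farthest from 0 for collagens (2.30) and for complex I (−1.54).

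Glucose genes moved in both directions. Of 22 glycolysis and uptake genes, 3 rose and 5 fell. The insulin-responsive transporter Slc2a4 read 143, 135 and 131 CPM against 391, 385 and 405 CPM and fell by 1.53, while the basal transporter Slc2a1 rose by 0.98. The groups did not overlap for Slc2a4. The muscle enolase Eno3 fell by 1.64. Of 21 lipid storage genes, 8 fell and none rose, including Ces1d, Plin5, Dgat2, Fitm1 and Fitm2. Ldha, which makes lactate, was near 0 (0.07, adjusted p = 0.893). Single hearts decided the call of Slc2a1 (Klf9KI heart 1 or Wt-Cre heart 1, 2 or 3), which was lost with adjusted p from 0.129 to 0.179 without them. For glucose genes that rose, the number was 1, 3 and 4 without Klf9KI heart 1, 2 or 3, and 1, 0 and 0 without Wt-Cre heart 1, 2 or 3. Glucose genes that fell numbered 2, 7 and 6, and 2, 2 and 4, in the same order.

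Several ion channel genes fell. Of 21 potassium channel genes, 10 fell and 0 rose, with a median of −0.78. The G protein-gated channel Kcnj3 read 2.02, 2.18 and 3.86 CPM in Klf9KI hearts against 39.1, 59.1 and 70.7 CPM in Wt-Cre hearts. All Klf9KI hearts were below all Wt-Cre hearts, and its log2 change was −4.39 (SE 0.33, adjusted p = 7.2e-05). The transient outward channels Kcnd2 and Kcnd3 and the inward rectifier Kcnj2 fell by 4.39, 2.72 and 2.08. Of 15 sodium channel, pacemaker and connexin genes, 1 rose (6.67%) and 5 fell (33.3%), against 4.96% and 5.52% of all genes tested. Scn4b, a sodium channel beta subunit, read 0.141, 1.23 and 1.17 CPM against 29.7, 32.7 and 37.7 CPM, and fell by 5.36 with no overlap. The pacemaker channels Hcn2 and Hcn4 fell by 2.40 and 2.71. Cacna1g, a T-type calcium channel, was the gene that rose (1.54). The number of potassium channel genes that fell was 7, 13 and 10 without Klf9KI heart 1, 2 or 3, and 6, 7 and 7 without Wt-Cre heart 1, 2 or 3.

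Of 22 calcium handling genes, 1 rose (Sri, 0.65) and 4 fell, 4.55% and 18.2%, against 4.96% and 5.52% of all genes tested. The share that rose stands near that of all genes, so the single rise is no result about the list. Hrc, a calcium-binding protein of the sarcoplasmic reticulum, read 174, 199 and 159 CPM against 772, 876 and 630.2 CPM with no overlap and fell by 2.10 (adjusted p = 0.000244). Atp2a2, the calcium pump, read 5186, 6650.3 and 4304 CPM against 11082, 11328 and 9988 CPM, with a log2 change of −1.01 (adjusted p = 0.0177) and a call lost without Klf9KI heart 1 or Wt-Cre heart 1, 2 or 3 (adjusted p = 0.0512 to 0.101). Its inhibitor phospholamban, Pln, fell by 0.94, a call lost without Wt-Cre heart 1, 2 or 3 (adjusted p = 0.0641 to 0.0943), and the kinase Camk2a by 0.65. The release channel Ryr2 (−0.30) and the L-type channel Cacna1c (0.07) did not pass. Of 19 adult sarcomere genes, 1 rose (5.26%) and 1 fell (5.26%). These shares stand near the 4.96% of all genes that were higher and the 5.52% that were lower, so the counts are no result about the list. The M-band gene Myom2 rose by 1.06, a call lost without Klf9KI heart 1 or 2 or Wt-Cre heart 1 or 3 (adjusted p = 0.064 to 0.175). Cardiac troponin I, Tnni3, fell by 1.33, a call lost without Wt-Cre heart 1 or 2 (adjusted p = 0.0599 to 0.0601). The call depended on 1 heart for Sri and Camk2a (Klf9KI heart 1 or Wt-Cre heart 1, 2 or 3), with adjusted p from 0.116 to 0.183 without it. With all hearts kept, a call was also lost for Camk2a with no filter on counts (adjusted p = 0.0754). Among calcium handling genes, the number that fell was 2, 7 and 4 without Klf9KI heart 1, 2 or 3, 1, 1 and 1 without Wt-Cre heart 1, 2 or 3, and 7 with the length offset. Adult sarcomere genes that fell numbered 1, 4 and 1, then 0, 0 and 1, and then 3, in the same order. Those that rose numbered 0, 1 and 1, then 0, 1 and 0, and then 1. By DESeq2 with all hearts, 1 rose and 5 fell.

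Interferon response genes rose. Of 26 tested, 16 rose and 0 fell, with a median of 1.30. Irf7, the transcription factor that amplifies the response, read 63.2, 40.3 and 77.0 CPM in Klf9KI hearts against 14.1, 10.7 and 13.5 CPM in Wt-Cre hearts, with no overlap and a log2 change of 2.23 (SE 0.26, adjusted p = 0.000584). Ifit1 rose by 2.36 and Usp18, a brake on the receptor, by 1.97. Apol9a and Apol9b also rose but are near-identical copies that can share reads. Of 21 inflammatory cytokines, chemokines and receptors, 4 rose (the receptors Tlr2 and Tlr4, the adhesion molecule Icam1 and the chemokine Cx3cl1), and Ccl2 did not pass (−0.36). The ATF4 and mitochondrial stress list had 9 higher and 0 lower of 26. Among them were the secreted Gdf15 (11.5, 26.7 and 13.3 against 3.65, 2.32 and 3.15 CPM), the folate enzyme Mthfd2 (2.10) and asparagine synthetase, Asns (1.98), while Atf4 itself did not pass (0.37). Leaving out 1 heart ended the call of Apol9a (Klf9KI heart 1 or 3 or Wt-Cre heart 1 or 3), Apol9b (Klf9KI heart 3 or Wt-Cre heart 1 or 2), Tlr2 (Wt-Cre heart 1, 2 or 3) and Tlr4 and Icam1 (Klf9KI heart 1 or Wt-Cre heart 1, 2 or 3), with adjusted p from 0.0617 to 0.147. For interferon genes that rose, the number was 10, 19 and 12 without Klf9KI heart 1, 2 or 3, and 10, 11 and 10 without Wt-Cre heart 1, 2 or 3. Inflammatory genes that rose numbered 2, 6 and 7, and 1, 1 and 1, in the same order, and 7 with the length offset. ATF4 list genes that rose numbered 5, 11 and 9, and 6, 5 and 6, in the same order.

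The 3 Klf9KI hearts differed from each other more than the 3 Wt-Cre hearts did. The common biological coefficient of variation was 35.5% within Klf9KI and 20.7% within Wt-Cre hearts. It was 29.4% in Klf9KI without replicate 2 and between 16.3% and 23.3% in Wt-Cre with any 1 heart left out. The SD of log2 CPM was larger within Klf9KI for 9834 genes (67.9%), and the median SD was 0.38 against 0.24. Pearson correlations of log2 CPM between pairs of Klf9KI hearts were 0.948, 0.948 and 0.917, and those between pairs of Wt-Cre hearts lay between 0.960 and 0.969. The difference between genotypes in spread has no test here.

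The distance from the Wt-Cre hearts also differed between the Klf9KI hearts. Of the genes called higher, Klf9KI replicate 2 lay farthest from the Wt-Cre mean in 52.7%, and of the genes called lower in 51.6%. Over all genes tested the same shares were 44.7% of those with a higher and 46.1% of those with a lower Klf9KI mean. The collagens had medians of 1.07, 2.30 and 1.07 in Klf9KI replicates 1, 2 and 3, and complex I had medians of −0.71, −1.54 and −0.63. Fatty acid oxidation had nearly even medians of −0.98, −1.08 and −1.21. Interferon genes were highest in replicate 3, with medians of 1.12, 1.11 and 1.71, and Myh7 was lowest there. The genes with the widest spread included Gapdh (8.30, 2.59 and 642 CPM in Klf9KI), Rpl21 (112, 15.6 and 163) and the heparan sulfate proteoglycan Gpc6 (7.13, 26.9 and 2.40). The cytosolic ribosomal proteins, which are short, had medians of −0.15, −1.15 and 0.13 in the 3 Klf9KI hearts. Gapdh and Rpl21 have many near-identical copies in the genome, so their counts are uncertain. With 1 heart left out, calls were lost for Gpc6 (Klf9KI heart 1 or 2 or Wt-Cre heart 1, 2 or 3) (adjusted p = 0.0697 to 0.144).

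The genotype difference was also placed beside those at 1 and 4 weeks, in 1 fit of all 18 libraries. Klf9 itself, scaled over these libraries, read 158, 183 and 152 CPM at 1 week, 149, 185 and 175 CPM at 4 weeks and 125, 144 and 127 CPM at 8 weeks in Klf9KI hearts. In Wt-Cre hearts it read 18.9, 18.1 and 14.0, then 118, 147 and 127, and then 52.0, 77.4 and 47.7 CPM. Its genotype effect was 3.27, 0.38 and 1.16 at 1, 4 and 8 weeks, and did not pass at 4 weeks (adjusted p = 0.203). The effect at 8 weeks was smaller than at 1 week by a log2 difference of −2.11 (adjusted p = 2.85e-05) and did not differ past the threshold from that at 4 weeks (0.79, adjusted p = 0.133). The difference at 8 weeks departed from that at 4 weeks for 80 of 16660 genes (0.48%), 26 of them toward higher (0.156%) and 54 toward lower (0.324%) values at 8 weeks. It departed from that at 1 week for 1574 genes (9.45%), of which 653 (3.92%) moved higher and 921 (5.53%) lower. The 80 genes became 51, 131 and 491 without Klf9KI replicate 1, 2 or 3 and 29, 21 and 82 without Wt-Cre replicate 1, 2 or 3 of the 8-week group, and the 1574 became 2414 without Klf9KI replicate 3. The median genotype effect of the collagens was −0.28, 0.77 and 1.56 at 1, 4 and 8 weeks on the log2 scale. For complex I it was 0.29, −0.23 and −0.90, and for fatty acid oxidation −0.05, −0.80 and −1.08.

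In the same fit, matrix genes had 5 members whose effect was higher (Comp, Postn, Loxl3, Prelp and Mfap5) and 0 whose effect was lower at 8 than at 4 weeks, of 95 tested. Their edgeR adjusted p ran from 0.0134 (Loxl3) to 0.0436 (Comp). For Comp the effect was 0.85 at 4 weeks and 5.93 at 8 weeks. Mitochondrial energy genes had 2 lower than at 4 weeks (Acaa2 and Mpc2, edgeR adjusted p = 0.0314 and 0.0364) and 107 lower than at 1 week, of 154. For the lists in this paragraph, counts with 1 heart left out are not given. Over all genes, the 80 that differed from 4 weeks became 29 and 21 without Wt-Cre replicate 1 or 2. The lysyl oxidase Loxl3 read 14.9, 12.1 and 10.6 CPM in Klf9KI hearts at 4 weeks and 35.2, 45.8 and 39.9 CPM at 8 weeks, and the difference of its genotype effect between those ages was 1.97 (adjusted p = 0.0134). Interferon genes ran the other way, with a median effect of 2.71 at 4 weeks and 1.27 at 8 weeks, and 6 of them had a lower effect at 8 weeks. Ifit2 read 253, 213 and 182 CPM in Klf9KI hearts at 4 weeks and 51.5, 65.5 and 70.1 CPM at 8 weeks, a difference in effect of −1.68 (adjusted p = 0.0111). Bdh1, a ketone body dehydrogenase, was higher in Klf9KI hearts at all 3 ages, with effects of 5.03, 5.04 and 1.42 at 1, 4 and 8 weeks. Ages were different animals, and the labels do not place the ages in a common sequencing run.

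**Figure D5:**
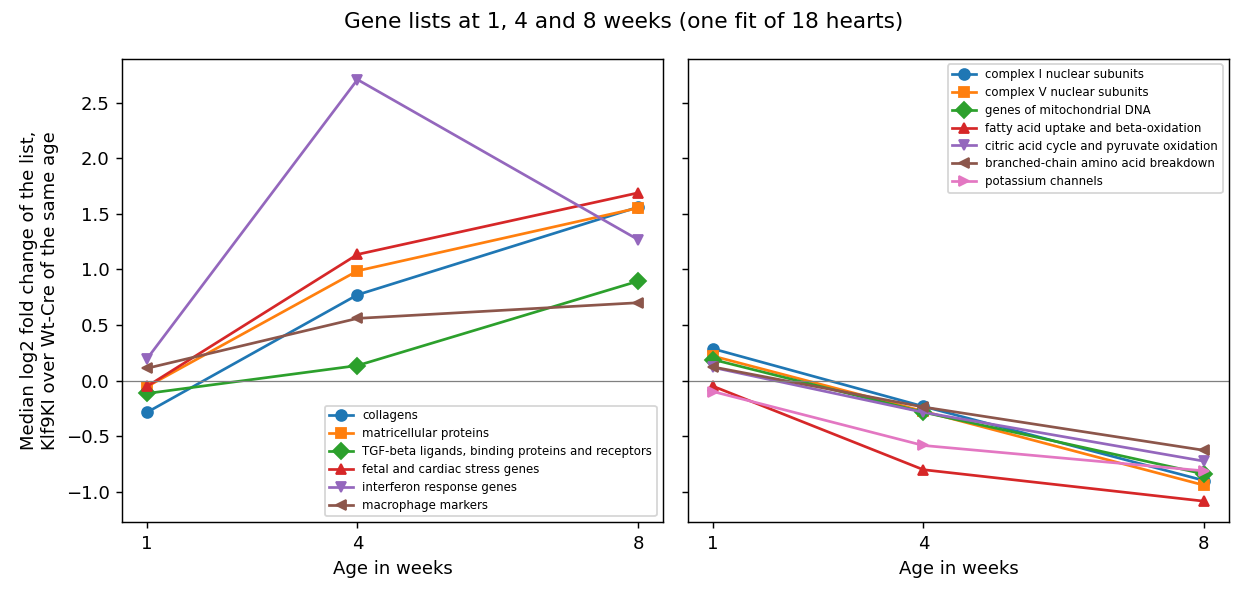
Median log2 genotype effect (y axis) of selected gene lists at 1, 4 and 8 weeks (x axis), from 1 fit of all 18 libraries. The left panel holds lists that were higher at 8 weeks and the right panel lists that were lower. Collagens stand at 1.56 and complex I at −0.90 at 8 weeks, and interferon genes have their highest median, 2.71, at 4 weeks.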

How the data were processed

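RNA of 6 hearts, 3 Klf9KI and 3 Wt-Cre, was compared at 8 weeks, with 12 hearts of 1 and 4 weeks as context. The members and gene lists were chosen with earlier results of these data known. The deposited tables hold the authors' raw counts per gene and FPKM values side by side. Per the submitters' processing notes, fastp, HISAT2 2.0.5, featureCounts 1.5.0-p3, StringTie 1.3.3b and DESeq2 1.20.0 were used with mm10, and BWA and MACS2 2.1.0 for binding regions. The deposited Klf9 region table gives the authors' signal per region. The labels speak of total RNA in titles and of poly-A selection in the protocol, and whether counting used the strand is not given in the sources used here, so genes that overlap on opposite strands are uncertain.

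Counts were filtered with filterByExpr, scaled with TMM and tested with edgeR 4.0.16 (R 4.3.3; quasi-likelihood, robust), Klf9KI against Wt-Cre, with Benjamini-Hochberg adjustment over all genes tested and a threshold of 0.05. The comparison between ages used 1 fit of 18 libraries over the 21463 genes that all 3 tables share. FPKM values served only to compare levels between genes, and ratios were tested by exact permutation. Differences of single hearts from the Wt-Cre mean use log2(CPM + 0.5). The code was tested on simulated data. A few genes are not reported here. Named genes are Klf9, the 15 largest rises and 15 largest falls with at least 5 CPM and no overlap, the 10 largest gains and losses in CPM among called genes, members of 55 gene lists (1079 genes), the 10 widest spreads within Klf9KI, and the 8 smallest adjusted p-values each way between ages. Alternatives were DESeq2 1.42.0, limma 3.58.1 with sample quality weights, other filters and scalings, a replicate block, each heart left out, and the length offset, which was chosen after seeing the data.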

Additional observations from a re-analysis of the deposited data

Results flagged for a closer look

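The genotype effect differed between ages in a test of the difference itself, in 1 fit of all 18 libraries (edgeR, adjusted p under 0.05), for 80 genes between 8 and 4 weeks and for 1574 genes between 8 and 1 weeks. For the genes with the smallest adjusted p, the values below are the effect at 8 weeks minus the effect at the earlier age on the log2 scale.

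Against 4 weeks, the effect was higher at 8 weeks for Rai14 (1.79), Ptprf (1.52), Dbn1 (1.57), Loxl3 (1.97), Bhlhe40 (1.63), Carhsp1 (0.97), Ppfia1 (1.35) and Mfap5 (1.45). It was lower for Bdh1 (−3.62), Bst2 (−1.69), Shmt1 (−1.98), Mal (−2.26), Cmss1 (−1.60), Gstk1 (−1.49), Ifit2 (−1.68) and Sord (−1.07). Bst2, Ifit2 and Shmt1 had effects of 2.14, 3.31 and 2.40 at 4 weeks and of 0.46, 1.63 and 0.42 at 8 weeks. Bhlhe40, a transcriptional repressor of the clock, had an effect of −0.68 at 4 weeks and 0.95 at 8 weeks.

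Against 1 week, the effect was higher at 8 weeks for Synpo2l (2.81), Xirp2 (2.87), Tgfb2 (2.86), Postn (4.00), Efhd2 (2.29), Carhsp1 (1.53), Ankrd1 (2.29) and Nlrc3 (4.18). It was lower for Rpl3l (−3.58), Gstk1 (−3.06), Slc36a2 (−4.16), Cmss1 (−2.66), Ogdhl (−2.42), Acaa2 (−2.16), Adhfe1 (−1.90) and Mccc2 (−1.80). Postn, Tgfb2 and Rpl3l had effects of 0.07, 0.08 and −0.01 at 1 week, all within 0.1 of 0.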

How the results depend on the processing

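With 3 hearts a group, the count of calls depends on the setting and on single hearts. Limma with sample quality weights called 2972 genes (1421 higher, 1551 lower) and 127 mitochondrial energy genes. The fit of all 18 libraries called 3278 genes (1492 higher, 1786 lower). A limit of 2-fold left 484 lower genes and 41 mitochondrial energy genes. With each heart left out in turn, between 518 and 2102 genes were called, 267 to 992 higher and 251 to 1158 lower. The matrix genes that rose numbered 33 to 61, the mitochondrial energy genes that fell 17 to 118, and the log2 change of Klf9 was 1.06 to 1.43. The effect differed between 8 and 4 weeks for 416 genes by DESeq2 and for 21 to 491 with each heart left out, and between 8 and 1 weeks for 1117 to 2414. Gpam, a gene of triglyceride synthesis, was not called with all hearts (log2 change 0.70) and reversed to −0.91 (adjusted p = 0.00858) without Klf9KI replicate 2, as did mt-Nd5, also not called, from 0.02 to −0.80 (adjusted p = 0.0336). Over the 6 hearts left out, their highest values were 1.13 and 0.39. Of 256 called genes named by rule or in the text, 132 kept direction and call in each of the 17 settings that tested them, and leaving out Wt-Cre replicate 1 ended 111 of the calls. The cause of these shifts was not tested. Hearts of the 2 genotypes share replicate numbers. Deviations of same-numbered hearts correlated at 0.0632, 0.101 and 0.144, and each heart correlated best with its own number. The labels do not say that the numbers pair the hearts, so the main test is unpaired. Whether the hearts are paired by number is not known. A replicate block called 1890 genes (867 higher, 1023 lower), 59 matrix genes and 102 mitochondrial energy genes, with Klf9 at 1.22. A sex term was not run because all 6 libraries had Y-linked RNA. Depth limits genes near the filter.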

Other observations

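The muscle ribosomal protein gene Rpl3l read 23.7, 21.2 and 28.3 CPM in Klf9KI hearts against 318, 293 and 253 CPM in Wt-Cre hearts, and its log2 change was −3.56 (edgeR adjusted p = 4.3e-05). Its widely expressed paralog Rpl3 rose by 0.88, a call lost without Klf9KI heart 1 or 3 or Wt-Cre heart 1, 2 or 3 (adjusted p = 0.0763 to 0.2). In the authors' FPKM values the ratio of Rpl3l to Rpl3 was 0.0880, 0.144 and 0.105 in Klf9KI and 2.80, 2.32 and 1.87 in Wt-Cre hearts, so the more abundant of the pair per length was Rpl3 in every Klf9KI heart and Rpl3l in every Wt-Cre heart. None of the other cytosolic ribosomal proteins of the list passed, of 41 tested.

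Of 24 genes of peroxide and thioredoxin defence, 2 rose and 7 fell. The secreted glutathione peroxidase Gpx3 read 919.8, 591 and 886 CPM against 204, 172 and 198 CPM with no overlap, and the mitochondrial peroxiredoxins Prdx3 and Prdx5 fell by 0.72 and 1.10 on the log2 scale. Of 25 cell cycle genes, 4 rose, among them Mki67 (1.84) and Top2a (2.55), whose calls were lost without Wt-Cre heart 1, 2 or 3 (adjusted p = 0.0758 to 0.0868) and without Wt-Cre heart 1, 2 or 3 (adjusted p = 0.0539 to 0.0749). Of 19 clock genes, 1 rose (5.26%) and 2 fell (10.5%), against 4.96% and 5.52% of all genes tested, and Per1, Per2 and Nr1d1 did not pass, with changes of 0.02, 0.11 and 0.31. Single hearts decided the call of Prdx3 (Klf9KI heart 1 or Wt-Cre heart 1, 2 or 3) and Prdx5 (Wt-Cre heart 1 or 2), which was lost with adjusted p from 0.0628 to 0.168 without them. Other settings with all hearts ended the call for Prdx3 with the length offset (adjusted p = 0.111), Mki67 by limma (adjusted p = 0.0898) and in the fit of 18 libraries (adjusted p = 0.0603) and for Top2a in the fit of 18 libraries (adjusted p = 0.0565). The number of peroxide defence genes that fell was 1, 9 and 8 without Klf9KI heart 1, 2 or 3, and 0, 0 and 2 without Wt-Cre heart 1, 2 or 3. Cell cycle genes that rose numbered 3, 4 and 5, and 0, 0 and 0, in the same order. Clock genes that fell numbered 1, 2 and 6, and 0, 1 and 0, in the same order. Those that rose numbered 0, 1 and 1, and 0, 0 and 0.

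In the adrenergic list, 3 of 21 genes rose and 3 fell. Adrb1, the main beta receptor of the ventricle, did not pass (−0.45), and the alpha receptors Adra1a and Adra1b fell by 1.90 and 1.45. The call of Adra1a was lost without Klf9KI heart 1 or Wt-Cre heart 2 or 3 (adjusted p = 0.0765 to 0.0972). Of 22 genes of the unfolded protein response, 1 fell (4.55%; Herpud1, −1.46) and none rose. Of 20 cytosolic tRNA synthetases, 1 rose and none fell, while the amino acid synthesis gene Phgdh rose by 2.44. Of 16 atrophy and autophagy genes, 1 fell (6.25%) and none rose. The last 3 lists stand near the 4.96% of all genes that were higher and the 5.52% that were lower, so these counts are no result about them. The call depended on 1 heart for Phgdh (Klf9KI heart 1 or 3 or Wt-Cre heart 1 or 3), with adjusted p from 0.0685 to 0.128 without it. Among adrenergic genes, the number that fell was 1, 5 and 2 without Klf9KI heart 1, 2 or 3, and 2, 1 and 1 without Wt-Cre heart 1, 2 or 3.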
